A study of Mus musculus with 2 samples.

Results

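The regions described here are the long stretches of the mouse autosomes in which no peak of the histone mark H3K4me1 was called. A gap was defined as a stretch of at least 200 kb between consecutive intervals of the authors' pooled peak list on the mm10 genome, chromosomes 1 to 19, and the stretch ahead of each chromosome's first peak was left out. Of 303807 stretches between consecutive peaks, 1450 were gaps, or 0.477%. The regions were chosen by the positions of the pooled peaks, so that the scarcity of peaks inside them is a description and is not tested. The shortest gap was 200284 bp long and the longest stretch that fell short of the limit was 199986 bp. There were 111 gaps within 10 kb above the limit and 121 stretches within 10 kb below it.

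The cells were E14TG2a.4, an embryonic stem cell line of male sex and strain 129/Ola, taken at embryonic age 3.5 days per the labels and assayed by ChIP-seq with an antibody against H3K4me1. There was 1 group, for which no treatment is named, with 2 biological replicates of this 1 line and 1 donor, and no control library was analysed here. The deposited peak lists hold positions, signal values and significance scores without read counts, so the sequencing depth is unknown. Where a population of cells is assayed, a mark on few cells and a weak mark on many cells cannot be told apart.

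H3K4me1 is the monomethylated form of lysine 4 on histone H3. It lies on enhancers, both active and poised, and on the flanks of active promoters, and it is laid down mainly by the MLL3 and MLL4 methyltransferases. Enhancers are dense around genes used or held ready in a cell type, and embryonic stem cells carry the mark widely. Mammalian chromosomes also hold long intergenic deserts, clusters of genes used in single tissues, and very long genes with large introns.

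The sequences below are the 250 bases upstream of the start of 5 genes that lay wholly inside gaps, from RefSeq on GRCm38.p6 (mm10), written 5′ to 3′ on the strand of the gene with each CG dinucleotide in capitals. They show how the promoters in the gaps differ in CG content. Ccl21b, a copy of the gene for the lymphoid chemokine CCL21, and Qrfprl, a receptor gene related to the neuropeptide QRFP receptor, had the highest ratios of observed to expected CpG among start sites in gaps. Olfr237 (an olfactory receptor), Gm12880 (a predicted gene) and Vmn1r12 (a vomeronasal receptor) lay nearest the median ratio of the 3 gene families with most members in gaps. The windows are chr4:42172870-42173119 on the plus strand for Ccl21b, chr6:65381044-65381293 plus for Qrfprl, chr6:43153057-43153306 plus for Olfr237, chr4:121582790-121583039 minus for Gm12880 and chr6:57158670-57158919 plus for Vmn1r12.
Ccl21b: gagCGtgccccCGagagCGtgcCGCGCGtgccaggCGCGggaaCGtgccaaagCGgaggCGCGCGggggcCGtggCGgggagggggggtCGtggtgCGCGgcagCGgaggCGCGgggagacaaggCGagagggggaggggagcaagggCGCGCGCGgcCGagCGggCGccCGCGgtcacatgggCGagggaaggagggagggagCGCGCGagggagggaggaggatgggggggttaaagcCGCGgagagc
Qrfprl: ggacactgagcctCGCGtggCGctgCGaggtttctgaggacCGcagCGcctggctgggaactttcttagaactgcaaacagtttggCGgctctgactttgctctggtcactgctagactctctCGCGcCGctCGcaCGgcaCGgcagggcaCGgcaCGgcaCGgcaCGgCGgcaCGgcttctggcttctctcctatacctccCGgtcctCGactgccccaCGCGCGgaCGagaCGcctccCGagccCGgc
Olfr237: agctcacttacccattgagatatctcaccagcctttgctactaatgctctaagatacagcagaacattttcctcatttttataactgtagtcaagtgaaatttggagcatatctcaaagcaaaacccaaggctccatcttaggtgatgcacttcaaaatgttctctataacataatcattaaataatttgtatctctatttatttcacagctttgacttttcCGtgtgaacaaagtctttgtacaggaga
Gm12880: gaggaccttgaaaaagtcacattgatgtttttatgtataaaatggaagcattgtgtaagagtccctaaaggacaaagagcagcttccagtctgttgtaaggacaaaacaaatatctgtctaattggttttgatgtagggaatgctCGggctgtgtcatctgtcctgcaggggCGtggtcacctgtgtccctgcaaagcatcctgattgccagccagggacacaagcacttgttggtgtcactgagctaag
Vmn1r12: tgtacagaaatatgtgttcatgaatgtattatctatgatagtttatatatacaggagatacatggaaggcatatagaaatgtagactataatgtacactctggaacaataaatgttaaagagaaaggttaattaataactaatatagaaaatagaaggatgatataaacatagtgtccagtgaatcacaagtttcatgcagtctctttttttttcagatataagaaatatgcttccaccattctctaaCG

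The Ccl21b and Qrfprl stretches hold 37 and 28 CG dinucleotides, and those of Olfr237, Gm12880 and Vmn1r12 hold 1, 2 and 1. The gap around Ccl21b was 1088908 bp long. Qrfprl lay at the border of its gap, which began at position 65381002, and a peak kept as replicated by the authors lay within 2 kb of its start. None of the 32-mers of the Ccl21b window occurred only once in the mm9 genome, against all of those of Qrfprl and Gm12880.

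A microRNA cluster also lay whole in 1 gap of the pooled list, and its mature sequences are shown because the copies share their seeds. MicroRNAs pair with messenger RNAs through the seed, bases 2 to 8, which is in capitals. All 13 Mir344 hairpins lay on the minus strand in the gap chr7:60009517-62229889, and the RefSeq sequences of 5 of the mature forms, chosen after the values were seen, are given 5′ to 3′.
mmu-miR-344-5p: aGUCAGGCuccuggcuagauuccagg
mmu-miR-344c-5p: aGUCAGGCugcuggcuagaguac
mmu-miR-344d-3p: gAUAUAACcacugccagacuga
mmu-miR-344e-3p: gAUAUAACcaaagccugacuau
mmu-miR-344-3p: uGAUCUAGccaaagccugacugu

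Of the mature entries of this cluster, 7 share the seed GUCAGGC, 4 share AUAUAAC, 3 share GAUCUAG and 3 share AGGCUUC. The gap spanned 2.22 Mb in the pooled list and in replicate 2, and 1.93 Mb in replicate 1. The replicate 1 gap ended at position 61940337, within the cluster, with Mir344g, Mir344f and Mir344i beyond it. The cluster was thus split in replicate 1.

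The gaps added up to 595 Mb, or 24.8% of the 2397 Mb between the first and last autosomal peaks. The quartiles of their length were 242, 312 and 462 kb, against a median of 624 bp for all stretches between peaks. There were 310 gaps of at least 500 kb, which held 42.9% of the gap length, and 59 gaps of at least 1 Mb, which held 14.7%. The longest gap had 3310091 bp. All 8 gaps of at least 2 Mb held whole protein-coding genes, as did 33 of the 59 gaps of at least 1 Mb.

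**Figure D1:**
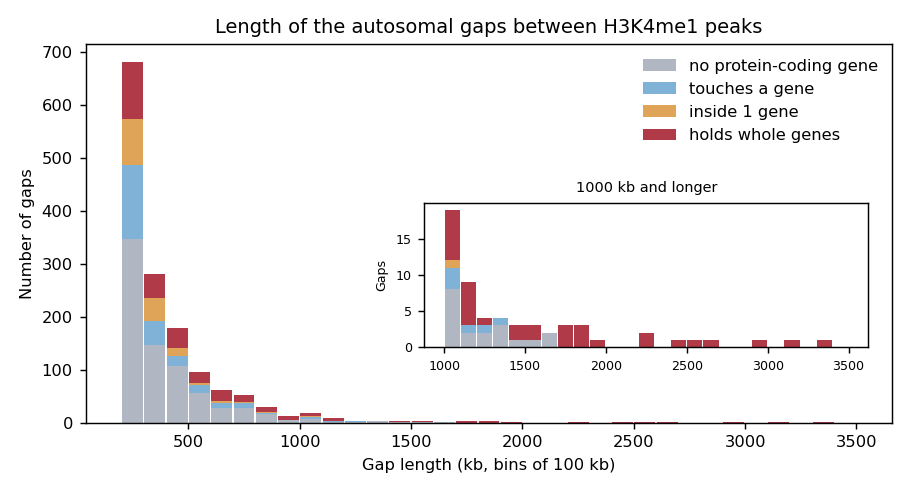
Number of gaps by length in bins of 100 kb, stacked by what the gap held, with the gaps of at least 1000 kb enlarged in the inset. Gaps without a protein-coding gene made up 752 of 1450, and all 8 gaps of at least 2 Mb held whole genes.

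Taken alone, the peak list of replicate 1 had 1557 gaps of 666 Mb and that of replicate 2 had 1541 gaps of 646 Mb, a mean of 1549 ± 11.3 gaps and 656 ± 14 Mb (SD, n = 2). Both replicates had more gaps and a greater gap length than the pooled list, which draws on both, so that they are no independent check of it. With an overlap of at least 50% of each gap, 1282 gaps were shared, or 82.3% of those of replicate 1 and 83.2% of those of replicate 2. With an overlap of at least 90% of each gap, 796 were shared.

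Few replicate peaks lay inside the pooled gaps, and hardly any lay at the same place in both replicates. The pooled list draws on both replicates and has no peak in the gaps by their definition. This choice favours weak peaks and peaks of 1 replicate, so the values here are descriptions. Replicate 1 had 255 peaks wholly inside gaps and replicate 2 had 253, in 229 and 225 gaps. Neither replicate had a peak wholly inside 1038 of the gaps (71.6%), and 42 gaps held peaks of both. Replicate 2 overlapped 2 of the 255 replicate 1 peaks (0.784%), against 83.0% of all its autosomal peaks. The peaks in gaps were weak and narrow by the authors' own values. Their median signal was 2.67 in replicate 1 and 2.71 in replicate 2, against 3.79 and 3.76 for all peaks, and their median width was 178 and 177 bp against 407 and 397 bp. Peaks covered 0.0116% of the gap length in replicate 1 and 0.0112% in replicate 2, against 8.69% and 8.87% of the whole span.

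The peaks that border the gaps were also weaker than the other pooled peaks. Of 2712 border peaks, 60.5% were kept in the authors' replicated list, against 73.4% of the other pooled peaks. Their median −log10 q was 5.54 against 8.94, and their median width 327 against 492 bp. Gaps often stood next to each other: 188 pairs of neighbouring gaps were separated by a single peak, and 358 pairs by islands of at most 20 kb. Joining gaps across such islands gave 1092 runs, of which 255 held at least 2 gaps. The longest run, chr14:106981172-111023378, joined 5 gaps over 4042207 bp, with 10 pooled peaks on its islands. It lay around Slitrk1 and Slitrk6, which encode transmembrane proteins of neurons. Slitrk6 lay wholly inside a gap and had no peak in either replicate. Slitrk1 stood on an island, with 18.5% of its record in a gap and peaks on 40.4% of it in replicate 1 and 13.9% in replicate 2.

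The gaps were spread over all 19 autosomes but unevenly. Their share of the span was highest on chromosome 14 at 34.9%, with 36.4% in replicate 1 and 35.8% in replicate 2. It was lowest on chromosome 11 at 13.1%, with 14.4% and 14%. Chromosomes 12, 3, 16 and 7 followed chromosome 14 with 31.2%, 30.1%, 29.8% and 29.3%, and chromosomes 9, 19 and 13 stood above chromosome 11 with 14.6%, 16.0% and 18.1%. Neighbours in the middle of this order differed by less than the replicates did, so that no order can be read there. Chromosome 7 had 75 gaps, or 5.27 per 10 Mb against 7.49 on chromosome 14 and 3.96 on chromosome 11. Its high share thus came with fewer gaps than on chromosome 14. The median gap of chromosome 7 was 339 kb, against 363 kb on chromosome 14 and 274 kb on chromosome 11, and its longest had 3310091 bp. Chromosome 7 carried 14.2 protein-coding genes per Mb, against 13.5 on chromosome 11 and 7.16 on chromosome 14. In all, 470 of the genes of chromosome 7 (23.2%) lay wholly inside gaps. On chromosome 18 this held for 5 genes (0.978%) and on chromosome 15 for 13 (1.68%).

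**Figure D2:**
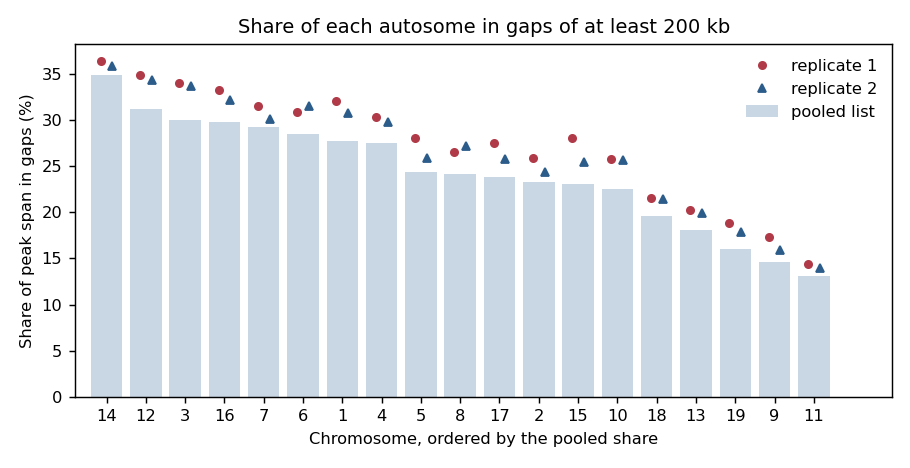
Share of each autosome's peak span that lay in gaps of at least 200 kb, for the pooled list (bars) and for the gaps of each replicate (points). Chromosome 14 had the highest share, 34.9%, and chromosome 11 the lowest, 13.1%, and both replicates lay above the pooled value on every chromosome.

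Of 20560 autosomal protein-coding genes, 1986 lay wholly inside gaps, which is 9.66%; this is the background for the families below. At least 1 bp of 2463 genes (12.0%) lay in a gap, and at least 50% of the record for 2254 (11.0%). The start site lay in a gap for 2020 of the 19960 genes of known strand (10.1%). Alone, replicate 1 had 2157 genes wholly inside its gaps and replicate 2 had 2109, a mean of 2133 ± 33.9 (SD, n = 2). Genes wholly inside numbered 3.34 per Mb of gap, against 8.58 per Mb of the span for all genes. They were shorter, with a median record of 2440 bp against 17574 bp. Both differences rest in part on the counting rule, which leaves out genes partly in a gap and favours short records. The genes wholly inside were also clustered: 61 gaps with at least 10 genes each held 1255 of them (63.2%). Of the gaps, 752 (51.9%) touched no protein-coding gene, 289 (19.9%) held whole genes, 250 touched a gene and 159 lay inside a single gene.

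Of the 1986 genes, 10 had a replicate 1 peak and 4 a replicate 2 peak on their record, where 79.8% and 79.3% of all genes had one. No gene had a peak in both. Genes inside gaps carry no pooled peak by definition, and the pooled list draws on both replicates, so these counts are descriptions. The 4 with a replicate 2 peak were Slco6d1 (a solute carrier), Ccr1l1 (a chemokine receptor relative), Serpina11 (a serpin) and Krtap22-2 (a keratin-associated protein), named after their values were seen. Those of replicate 1 included Tyr, the tyrosinase of pigment cells, and Amy1, the salivary amylase.

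Most of the 10 longest gaps held clusters of related genes. The longest, chr7:20049747-23359837, held 85 genes, led by Vmn1r91, Vmn1r240, Vmn1r93 and Vmn1r94 of the type 1 vomeronasal receptors, which detect pheromones. It spanned 3.31 Mb in the pooled list, with 3.42 Mb in replicate 1 and 3.33 Mb in replicate 2. The next, chr7:7300181-10493973, spanned 3.19 Mb in both replicates and held 26 genes, among them Vmn2r30, Vmn2r31, Vmn2r32 and Vmn2r33 of the type 2 receptors. The gap chr12:21569676-24471289 held 14 genes, opening with the predicted genes Gm46305, Gm10476, Gm46340 and Gm40864. It spanned 2.90 Mb in replicate 1 and 2.93 Mb in replicate 2.

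The gap chr5:93363238-96031832 held 31 genes, mostly of the Pramel family, which is used in germ cells and early embryos, with Pramel33, Pramel34, Pramel35 and Gm6346 first, and also Cxcl13, a B cell chemokine. The gap chr14:41202941-43797016 held 36 genes, among them Gm2832, Gm5798, Gm7945 and Gm6482. The gap chr7:31209117-33689331 held 28 secretoglobin genes, starting with Scgb2b1, Scgb1b2, Scgb2b2 and Scgb2b3; these small proteins are secreted in saliva and other fluids. The gap chr4:112056684-114356314 held 8 Skint genes, including Skint4, Skint3, Skint9 and Skint2, relatives of the thymic selection gene of skin T cells. The microRNA gap on chromosome 7 held a single whole coding gene, Gm51483. The gap chr4:59998631-61967339 held 20 major urinary protein records, Mup6, Mup7, Mup2 and Mup8 first, which carry pheromones in urine. The gap chr2:175176727-177073045 held 20 genes, among them Zfp968, a zinc finger gene, after Gm14391, Gm14440 and Gm4631. Both replicates spanned nearly the same length as the pooled list in these gaps, apart from chromosome 14, where replicate 1 had 2.59 Mb and replicate 2 had 2.78 Mb, and the microRNA gap.

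Other gaps were richer in genes for their length. The gap chr2:87535380-89042536 held 69 genes, Olfr1128, Olfr1129, Olfr1130 and Olfr1131 first. Replicate 2 spanned 1.51 Mb there and replicate 1 only 0.774 Mb, so that this receptor cluster was split in replicate 1. The gap chr16:88829571-89292727 held 41 genes, many of them predicted genes beside keratin-associated genes of hair, beginning with Krtap19-1, Krtap19-2, Krtap19-3 and Krtap19-4, with 0.464 Mb in replicate 1 and 0.282 Mb in replicate 2. The gap chr7:102687968-103396699 held 37 genes, Olfr557, Olfr558, Olfr33 and Olfr559 first, and spanned 0.709 Mb in both replicates.

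Chemosensory receptors formed the largest group. Olfactory and vomeronasal receptors together made up 934 of the genes wholly inside gaps (47.0%), where they are 7.06% of all autosomal coding genes. Among all other genes 5.51% lay wholly inside gaps. Of 1103 olfactory receptors, the odorant detectors of the nose, 688 lay inside (62.4%), with 732 inside the gaps of replicate 1 and 705 inside those of replicate 2. They were spread over 49 gaps on 11 chromosomes, with Olfr132 and Olfr1444 as examples beside Olfr1128. Of 228 type 1 vomeronasal receptors, 163 lay inside (71.5%), with 173 and 178 by replicate; beyond Vmn1r91, Vmn1r66 and Vmn1r71 lay in the next longest gaps. Of 121 type 2 receptors, 83 lay inside (68.6%), with 91 and 93, such as Vmn2r28 and Vmn2r96.

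Smaller receptor families sat in single gaps. The 24 of 35 bitter taste receptors inside, Tas2r130 among them, shared a gap of 1471773 bp on chromosome 6, and each replicate had 27 inside. The 14 of 20 Mas-related receptors inside, which serve itch and pain neurons, shared 1 gap of 1496864 bp on chromosome 7 with Mrgpra1, and each replicate had 14. None of 15 trace amine-associated receptors lay inside in the pooled list or in either replicate.

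Genes of reproduction, placenta and secretions came next. All 28 alpha defensins, antimicrobial peptides of the gut including Defa21, lay in 1 gap of 901047 bp on chromosome 8. Of 42 beta defensins, by contrast, 1 lay inside (2.38%). Of 27 prolactin family genes, hormones of pituitary and placenta, 26 lay in 4 gaps on chromosome 13, among them Prl, Prl8a9 and Prl2c2. All 8 placental cathepsins, proteases such as Cts8 and Ctsj, lay inside. The alpha defensin, prolactin and cathepsin counts were the same in both replicates. Of 40 secretoglobins 35 lay inside (87.5%), with 36 in replicate 1 and 32 in replicate 2. Of 22 major urinary proteins 18 lay inside (81.8%), and 18 in each replicate. Of 79 Spata, Oog and Pramel genes 30 lay inside, with 40 and 30; Oog1 and Pramel14 were among them. On mm9 many of these symbols are not annotated. Of 17 major urinary proteins inside mm10 gaps and found on mm9, 6 lay in an mm9 gap. A replicate 1 peak on mm9 lay on 1 of the 17 and a replicate 2 peak on 2. All 10 alpha defensins found lay in mm9 gaps, as did 3 of 6 Spata, Oog and Pramel genes inside mm10 gaps. For secretoglobins, 4 outside the mm10 gaps were found, none in an mm9 gap, which says nothing about the 35 inside.

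Families of the liver and of defence were split. Of 99 cytochromes P450, oxidases of drugs and steroids, 29 lay inside (29.3%), with 29 in replicate 1 and 23 in replicate 2; examples are Cyp2c55, Cyp3a57 and Cyp2j12. Of 62 serpins, protease inhibitors, 24 lay inside, with 24 and 20, such as Serpini2, Serpinb3b and Serpinb9c. Of 19 carboxylesterases, including Ces2b, 7 lay inside, with 7 and 3, and of 21 sulfotransferases, including Sult2a5, 7 lay inside, with 7 and 6. Of 22 UDP glucuronosyltransferases 4 lay inside (Ugt2b1, Ugt2b5, Ugt2b35 and Ugt2b36), with 6 and 7. Of 27 Klr receptors of natural killer cells, such as Klri2, 13 lay in 1 gap, and 20 and 21 lay inside by replicate. Of 56 keratin-associated proteins 15 lay inside (26.8%), and the replicates differed with 20 and 11. Of 34 ADAM proteases 7 lay inside, in the pooled list and in each replicate, among them Adam6b, Adam29 and Adam34l. Of 20 interferon genes none lay inside in the pooled list or replicate 1, and 6 did in replicate 2. Several of these counts rest on gaps of 200 to 500 kb. With a minimum of 500 kb, 1 serpin, 16 cytochromes P450, 4 sulfotransferases and 2 ADAM proteases were left, and no carboxylesterase, UDP glucuronosyltransferase or keratin-associated protein. With a minimum of 100 kb, 13 interferon genes lay inside.

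Not every clustered family lay in gaps. None of 27 kallikreins, a cluster of serine proteases, and none of 67 protocadherins lay wholly inside, although 4 kallikreins did with a minimum of 100 kb. Of 388 zinc finger genes named Zfp, 15 lay inside (3.87%), under the 9.66% of all genes. Predicted genes named Gm gave 364 of 959 (38%). Of the 44 other families compared, 23 had a share above that of all genes and 16 had no member inside, and together they held 1250 of the 1986 genes (62.9%).

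**Figure D3:**
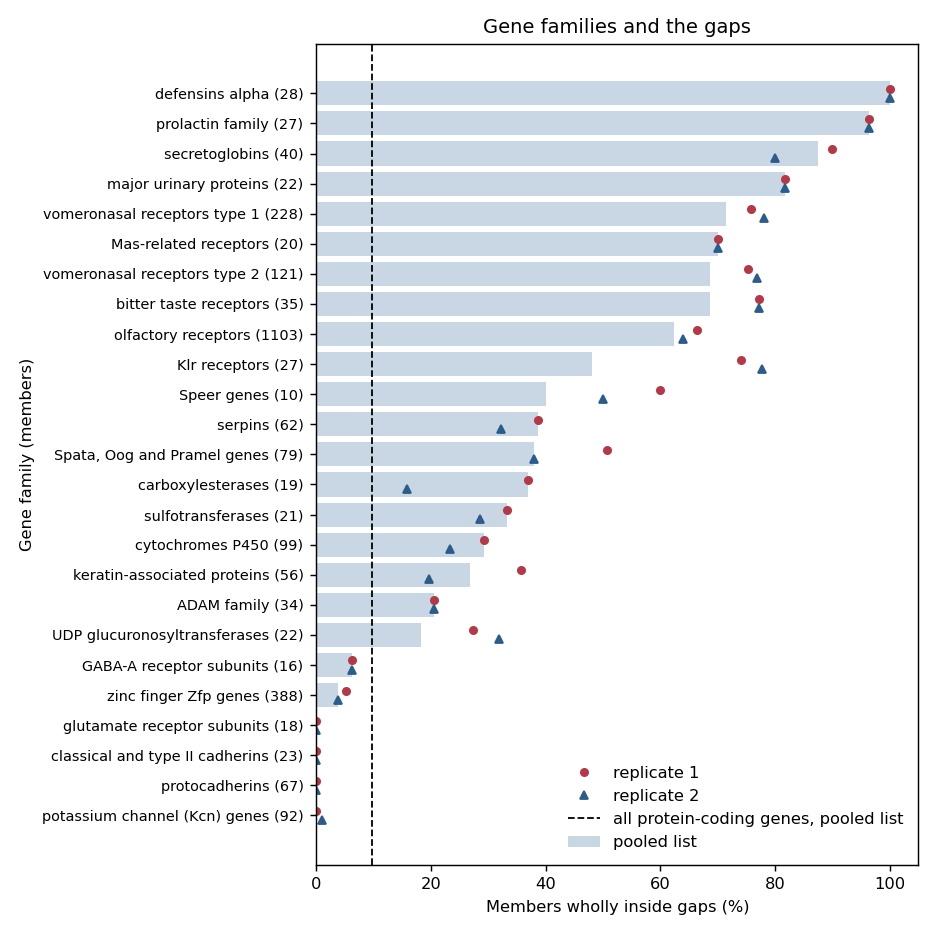
Share of the members of each gene family that lay wholly inside gaps, for the pooled list (bars) and for each replicate's own gaps (points), with the share of all protein-coding genes as a dashed line (9.66%). Families of at least 10 members with 3 inside or 5 touching a gap are shown; all alpha defensins lie inside, as do 62.4% of olfactory receptors, while protocadherins and potassium channel genes stay at 0 in the pooled list.

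Marker genes of the labelled cells and of other lineages were looked up, and their counts do not set the label apart from the other lists. None of 10 pluripotency genes lay in a gap, and 9 of them had a replicated peak within 2 kb of the start, where 9.66% of all genes lay inside and 75% of those of known start had such a peak. Peaks covered from 0% (Sox2 and Dppa5a, in both replicates) to 55.9% (Esrrb) of the records of these 10 genes in replicate 1 and up to 62.8% (Tfcp2l1) in replicate 2. The neural factor Pax6 had more, 78.7% and 75.1%, as did the mesoderm factor Eomes with 70.9% and 68.1%. None of 6 endoderm, 4 mesoderm or 4 neural genes lay in a gap either, and 4 of each had such a peak. Of 7 fibroblast genes, listed because feeder cells can be present, Col3a1 and Dcn, a collagen and a matrix proteoglycan, lay wholly inside gaps of 365 and 379 kb and had no peak in either replicate. The other 5 had a promoter peak.

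Very long genes took up gaps without lying inside them. Of 55 genes of at least 1 Mb, 45 touched a gap, 23 had at least 50% of their record in gaps and none lay wholly inside. Over all genes these shares were 12.0%, 11.0% and 9.66%. A long record meets a gap more readily, and only 59 gaps were long enough to hold such a gene. These counts thus rest in part on gene length. Lsamp, a neural adhesion protein, had the most sequence in gaps, 1.72 of 2.20 Mb (78.4%) in 5 gaps. It was followed by Cntnap2 (1.67 Mb, 74.7%), which clusters potassium channels on axons, and Ptprd (1.49 Mb, 65.5%), a receptor phosphatase of synapses. Nrg3, a growth factor of the neuregulin family, had 99.9% of its 1.11 Mb in 1 gap, with 1 peak in each replicate. Dpp10, Gpc5, Galntl6, Lrp1b and Lrrc4c were also among the genes with most sequence in gaps, with 76.2%, 78.7%, 97%, 52.8% and 78.0% in gaps.

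A replicated peak lay within 2 kb of the start of Cntnap2, Gpc5, Nrg3, Galntl6, Lrp1b and Lrrc4c. For Lsamp and Dpp10 the nearest one lay 617037 and 426478 bp from the annotated start, and for Ptprd no strand was known. Of all 268 genes with at least 50% but not all of their record in gaps, 263 had a known start and 199 of these (75.7%) had a promoter peak, against 75% of all genes of known start. Genes wholly inside gaps are left out of this set by its definition, so nothing is read from the share. The median length of the 268 genes was 221910 bp. The longest gap inside a single gene spanned 1020094 bp of Cntnap2, in which both replicates also had 1.02 Mb without a peak.

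Families of adhesion proteins and channels can be set beside the 11.0% of all genes with at least 50% of their record in gaps. Of those 2254 genes, however, 1986 lay wholly inside and only 268 partly inside. The 11.0% is thus made mostly of another kind of gene. Of 23 cadherins, calcium-dependent adhesion proteins, 6 touched a gap and 5 had at least 50% of their record in gaps: Cdh10 (99.5%), Cdh7 (99.1%), Cdh11 (98.4%), Cdh12 (75.1%) and Cdh8 (57.4%). Of 16 subunits of the GABA-A receptor, the main inhibitory receptor of the brain, 7 had at least 50% in gaps. Among them Gabrb2 had 98.6% in gaps and a promoter peak. Of 92 potassium channel genes 9 had at least 50% in gaps, Kcnh5 (98.7%) and Kcna4 (97%) the most. This share is near the 11.0% of all genes, but no potassium channel gene lay wholly inside, so no likeness is read from it. Among the glutamate receptor subunits, Grik2 had 91.8% and Gria1 51.7% in gaps. Among the contactins, Cntn6 lay wholly inside, while Cntn3 and Cntn4 had 64.4% and 64.1% in gaps. At least 50% lay in gaps for 3 of 18 glutamate receptor subunits, 3 of 6 contactins and 3 of 67 protocadherins. The same held for 3 of 7 contactin-associated proteins and 1 of 4 Slitrk genes. Over all these families, 31 genes had at least 50% but not all in gaps, and 26 of them had a promoter peak. Of all genes of known start 75% had one, and genes wholly inside are left out here by definition. Nothing is read from the 26. Further families of this kind are not in that count. At least 50% lay in gaps for 1 of 14 sodium channels, 1 of 3 glycine receptor subunits and 2 of 20 semaphorins. The same held for 2 of 21 LRRN, LRFN and LRRC4 adhesion genes. None of 5 neurexins and neuroligins, 4 Lrrtm genes, 3 Flrt genes or 3 teneurins reached 50%.

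The longest genes that did lie wholly inside were Skint5 (521613 bp) and Skint6 (482358 bp), then Cntn6 (370745 bp) and the dynein gene Dnah7b (307481 bp). Gm4724, Gm21154, Gm40862, Gm7592, Cyp2c39 and Gm40847 followed, from 286090 down to 220459 bp. Dnah7b had 1 replicate 1 peak, on 0.0647% of its record, and the other 9 had none in either replicate.

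Antigen receptor loci, which lymphocytes rearrange, were examined after the gene counts were seen. Of the variable segments, 253 of 374 (67.6%) lay inside gaps, where 14.2% of gene records of any kind did. Of 120 heavy chain V segments of the immunoglobulins on chromosome 12, 99 lay inside (82.5%), in 2 gaps of which the longer had 1584121 bp. Of 102 kappa V segments on chromosome 6, 85 lay inside (83.3%). For T cell receptors, 60 of 114 alpha V segments on chromosome 14 (52.6%) and all 7 gamma V segments on chromosome 13 lay inside, but only 1 of 22 beta V segments on chromosome 6. None of 5 delta V segments and none of 3 lambda V segments of the immunoglobulins lay inside. Pseudogenes lay inside in 2580 of 8798 cases (29.3%), long noncoding RNAs in 859 of 12324 (6.97%) and transfer RNA genes in 8 of 386 (2.07%).

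Small nucleolar RNAs, which guide modification of other RNAs, lay inside gaps in 393 of 1276 cases (30.8%). Of these, chosen after their values were seen, 206 (52.4%) shared the gap chr7:59277632-59999564, which reached from within Ube3a, a ubiquitin ligase gene, into Snurf and Snrpn, all in the imprinted Prader-Willi and Angelman region. The records there include 17 named for Snord116. Snurf, whose record overlaps that of Snrpn, had a promoter peak, and 75.2% of its record lay in gaps. Snrpn had no promoter peak at its own annotated start, and 97.9% of its record lay in gaps. This gap and the microRNA gap formed a run of 2952258 bp with 7 pooled peaks between them.

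MicroRNA hairpins were fewer in gaps than gene records in general, with 52 of 919 inside (5.66%). Beside the Mir344 cluster these included hairpins of widely conserved microRNAs: mmu-let-7c-5p and mmu-miR-99a-5p on chromosome 16 in a gap of 221030 bp, mmu-miR-181a-5p and mmu-miR-181b-5p on chromosome 1 in a gap of 254869 bp, and mmu-miR-218-5p on chromosome 5 in a gap of 212020 bp. They were picked after the values were seen. Their hairpin records are Mirlet7c-1, Mir99a, Mir181a-1, Mir181b-1 and Mir218-1, and the gaps are given for these copies only. The first 4 are printed with the seed in capitals, and let-7c is a microRNA that rises when stem cells differentiate. The seed ACAUUCA is common to both miR-181 forms.
mmu-let-7c-5p: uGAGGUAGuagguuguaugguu
mmu-miR-99a-5p: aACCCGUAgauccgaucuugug
mmu-miR-181a-5p: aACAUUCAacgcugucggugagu
mmu-miR-181b-5p: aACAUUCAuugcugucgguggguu

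The base sequence of the gaps was read on mm9, the genome given here, with the gaps of the authors' mm9 list (1567 gaps, 651 Mb); no position was carried between builds. Gaps had fewer G and C bases, 38.4% against 43.2% in the rest of the autosomes, and fewer CpG dinucleotides, 5.49 against 9.60 per kb. The gaps of replicate 1 had 38.6% and those of replicate 2 had 38.5% G and C. Per gap the median was 38.4% (10th to 90th percentile 36.5 to 41.1, n = 1557), against 43.6% (39.8 to 48.4, n = 4910) in windows of 300 kb without a gap. The middle 80% of gaps and of windows overlapped between 39.8% and 41.1%.

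Less of the gap sequence was unique. Of the 32-mers sampled every 500 bp, 78.2% occurred only once in the genome in gaps, with 78.9% in replicate 1 and 78.5% in replicate 2, against 86.9% in the rest. In gaps with at least 3 whole genes the share was 54.8%, while gaps that touched a gene without holding one had 84.8% and those without a gene 80.7%. The mm9 gap of the type 1 vomeronasal cluster on chromosome 7 had only 2.71% and that of the type 2 cluster 4.53%. In all, 59 gaps had under 50% and 184 had at least 90% unique 32-mers. Undetermined bases made up 2.63% of the gap length and 15.6% in gaps with at least 3 genes, and 10 gaps were undetermined over more than 50% of their length. How reads that match several places were treated is not given in the sources used here, and the part of repeated sequence in the gaps was not tested.

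**Figure D4:**
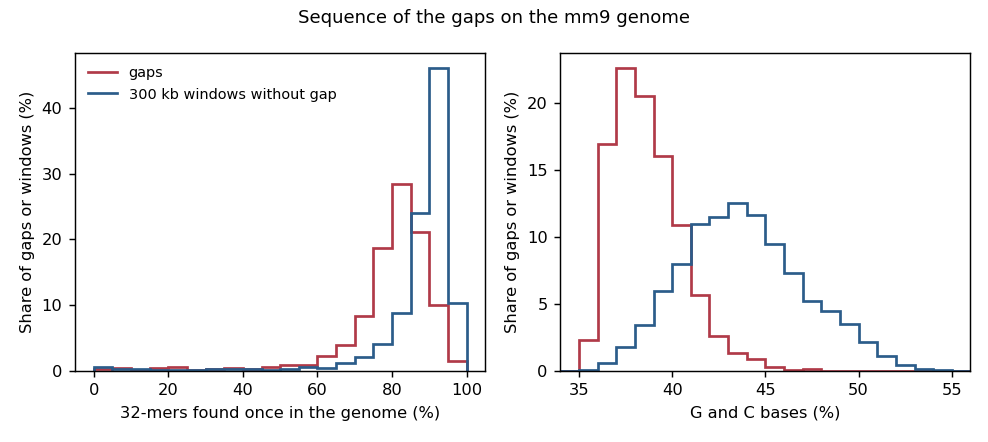
Distribution of the share of 32-mers found once in the genome (left, bins of 5 percentage points) and of G and C content (right, bins of 1 point) over mm9 gaps (red) and over 300 kb windows without a gap (blue), each as percent of its group. The gaps lie to the left in both panels, with medians of 82.1% and 38.4% against 90.7% and 43.6%, and the distributions overlap.

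Genes could be set beside these values where their symbol was found on mm9. Of 11712 genes whose surroundings had at least 90% unique 32-mers, 417 (3.56%) lay inside an mm10 gap, and of 657 genes with under 50%, 399 (60.7%) did. Among genes with at least 90%, the share of olfactory receptors inside was 59.4% (278 of 468), that of type 1 vomeronasal receptors 48.6% (18 of 37) and that of prolactin family genes 91.7% (11 of 12). Over all members these shares were 62.4%, 71.5% and 96.3%. Of 37 cytochromes P450 with at least 90% a single gene lay inside (2.70%), against 29.3% of all members, and of 182 Zfp genes none did. Of 10 alpha defensins and 17 major urinary proteins inside mm10 gaps, none reached 90%. Their median shares were 9.31% and 10.7%, so these families could not be read at that limit. The mm9 gap that held Defa21 was 74.7% undetermined. On mm9, 79.8% of 1531 genes inside mm10 gaps lay inside an mm9 gap too, against 1.13% of genes outside. A replicate 1 peak on mm9 lay on 3.98% of them and a replicate 2 peak on 4.18%.

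Promoters in gaps were poor in CpG. Among 16457 genes with a RefSeq promoter window of 300 bases, the 1785 whose start lay in a gap had a median observed to expected CpG ratio of 0.118, against 0.659 for the 14672 outside. A ratio of at least 0.6 was reached by 60 of them (3.36%), against 55.5% outside, and the median G and C content was 39.3% against 58.3%. Olfactory receptor promoters were alike on both sides, with 0.0988 for 590 inside and 0.121 for 348 outside. Promoters of Zfp genes differed, with 0.285 for 16 inside and 0.635 for 309 outside. Of the promoters printed above, the windows of Ccl21b and Qrfprl had ratios of 1.17 and 1.03, and those of Olfr237, Gm12880 and Vmn1r12 had 0.0988, 0.122 and 0.164. Unique 32-mers made up at least 90% of the window for 49.0% of promoters in gaps and 93.0% outside. These windows come from mm10 but their 32-mers were counted on mm9. A 32-mer missing from mm9 counts as not unique, so the 49.0% mixes repeated sequence with sequence absent from mm9.

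**Figure D5:**
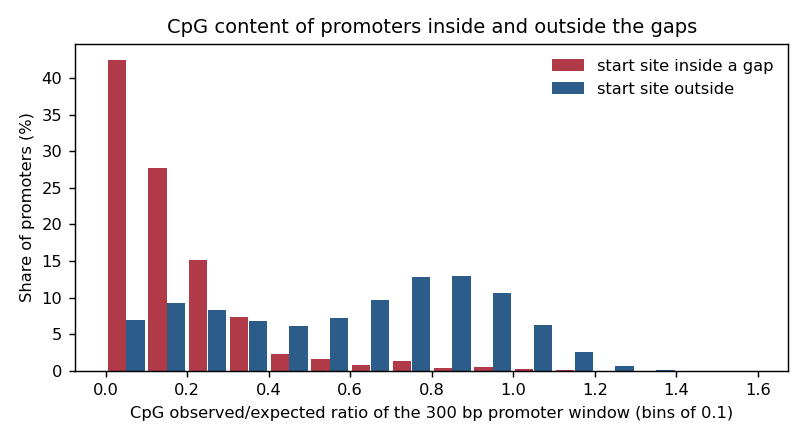
Observed to expected CpG ratio of the 300 base promoter windows, in bins of 0.1, as percent of the 1785 promoters with the start site inside a gap (red) and of the 14672 outside (blue). Promoters in gaps pile up below 0.3 with a median of 0.118, while those outside spread to above 1.0 with a median of 0.659.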

How the data were processed

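H3K4me1 ChIP-seq peak lists of 2 biological replicates were used. Per the read-me lists, the authors deposited narrow peak lists on mm10 (per replicate, pooled and replicated) and broad lists on mm9. Each peak carries the authors' signal value, in a scale not given in the sources used here, and a deposited −log10 q on mm10. The mm9 lists carry deposited q-values, which were not used. Which aligner and caller made them remains not given in the sources used here. In the deposited read-me lists, the files of replicate 2 and of both replicates drew on a further file that replicate 1 did not.

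Gaps of at least 200 kb and all counts were computed with Python 3.11.15, pandas 2.3.3 and numba 0.67.0, and the code was tested on simulated data. Genes came from RefSeq (GRCm38.p6); 328 records (105 protein-coding) starting below 3 Mb were left out as positions on other scaffolds, since all mouse autosomes begin with undetermined bases there. Strand came from RefSeq or, for 3503 genes, a GENCODE annotation, and was unknown for 600. Uniqueness was the share of 32-mers, sampled every 500 bp, found once on mm9. For the promoter windows every 32-mer of the mm10 sequence was used and counted on mm9.

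Genes were named by rule: up to 4 in each of the 10 longest and 5 gene-richest gaps, up to 3 per family with 3 or more inside, the 10 longest inside, the 10 with most sequence in gaps, listed marker genes, and promoters of highest or family-median CpG ratio. Chromosome 18 was left out of the choice of promoters. The members, families and lists were chosen with earlier results of these data known. Symbol stems, unique-gene counts, noncoding records and the partly covered adhesion and channel genes were added after seeing the data. No test was run, since there is 1 group and peaks chose the regions. Alternatives were other peak lists, lengths and gene rules. Some genes that meet the naming rule are not reported here.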

Additional observations from a re-analysis of the deposited data

How the results depend on the processing

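No paired analysis was possible because there is 1 group. With peaks of −log10 q of at least 2, gap number (1456), length and genes inside (1993) stayed near the values given. The replicated list had 734 Mb of gaps and the mm9 list 651 Mb, with a longest gap of 7489200 bp, which on mm9 is 93.5% undetermined. The 50000 strongest peaks gave 1519.7 Mb, a longest gap of 8628589 bp, 6114 genes, 2142 family members and 3 lineage genes (Sox17, Afp and Dab2) inside. With a minimum of 100 kb there were 3620 gaps of 897 Mb with 38.9% G and C, 79.1% unique 32-mers and 553 and 564 peaks of replicates 1 and 2. With 500 kb there were 310 gaps of 255 Mb with 1135 genes, 740 family members, 37.7% G and C, 75.8% unique 32-mers and 68 and 72 peaks. Gaps without undetermined bases had 38.3% G and C and 79.7% unique 32-mers. The gaps shared by the replicates fell to 796 with 90% overlap. Leaving out a replicate gave 646 to 666 Mb, a longest gap of 3327964 to 3419599 bp, 38.5 to 38.6% G and C and 78.5 to 78.9% unique 32-mers. Of 440 values of single families under another setting, 334 stayed within 1.5 times or at 0 and 106 did not, among them olfactory receptors (369 at 500 kb) and zinc finger Zfp genes (105 with the 50000 strongest peaks, 3 on mm9); the cause was not tested for any value here. Depth is unknown, the mm10 base sequence was not analysed here, and repeat-masked shares were not run.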

Other observations

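Beyond the families above, gene symbols that share a stem were grouped after the data were seen. Only stems with at least 4 members inside gaps were kept, so they were chosen by lying there. Of all genes, 9.66% lay wholly inside. The kept stems also include low shares, such as 5 of 362 Slc genes (1.38%) and 6 of 167 Fam genes (3.59%). All 14 Pate genes, secreted proteins of the male tract, lay in 2 gaps on chromosome 9, and 12 of 15 Esp genes, the exocrine gland peptides that act as pheromones, lay in 3 gaps on chromosome 17. All 7 amylase genes (Amy) lay in 1 gap on chromosome 3, as did 7 of 8 Tdpoz genes. Of 19 Ifi genes, interferon-inducible, 9 lay in 3 gaps. All 5 beta globin genes with a position on chromosome 7 (Hbb-bt, Hbb-bs, Hbb-bh2, Hbb-bh1 and Hbb-y) lay in a gap of 240 kb and had no peak in either replicate.

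Among the same stems, Obox1, Obox2, Obox3, Obox5 and Obox7, homeobox genes of the oocyte and early embryo, lay in 1 gap on chromosome 7 (5 of 6 Obox genes). Zscan4b, Zscan4c, Zscan4d and Zscan4f, markers of a rare state of stem cells that resembles the 2-cell embryo, also shared 1 gap there (4 of 16 Zscan genes). None of these had a peak in either replicate. Genes inside gaps carry no pooled peak by definition, and the share of unique sequence at these genes is not given here. A lack of the mark on them is therefore not read from this.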
